A study of Mus musculus with 8 samples.

Results

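The MHC molecules and the proteins that load them with peptide were followed in RNA from tagged ribosomes of the mouse hippocampus. The set was chosen by name and comprised 10 genes. B2m, H2-D1, H2-K1, Tap1, Tap2 and Tapbp serve class I, and Cd74, H2-Aa, H2-Ab1 and Ciita serve class II. Every non-control array probe that carried one of these gene names was taken, which gave 14 of the 55663 probes used, 7 for class I and 7 for class II. Signal was high enough to test 13 of the 14, out of 44316 probes tested in all, and the H2-Aa probe was the one left out of the test.

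The study compared 2 groups of C57BL/6 mice, with 4 mice and 4 arrays in each. In the WT group Ctcf was wild type, and in the CKO group both Ctcf alleles were flanked by loxP sites. Both groups were positive for Camk2a-Cre and for RiboTag, the allele Rpl22-tsam1.1Psam/J, so the Cre and the tag are shared by cases and controls. Camk2a-Cre is a transgene active in forebrain excitatory neurons, where it removes the floxed Ctcf and switches on an HA-tagged copy of the ribosomal protein Rpl22. Tagged ribosomes were then pulled down from hippocampal lysate with an antibody to HA. The labels describe the mice as naive and at least 3 months old, with 3 males and 1 female in each group. The design text of the series instead calls the controls loxP homozygotes, and the labels of the single samples were followed here. Signal is given throughout as a normalized log2 signal, the log2 intensity of a probe minus the 75th percentile of its array. A difference is the CKO mean minus the WT mean on that scale. Levels of different probes were not compared as amounts of RNA. The brightness of some probes is given to describe them, and the marker sums add linear signal across probes.

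Class I molecules display peptides from the cytosol. A heavy chain such as H2-K1 or H2-D1 pairs with beta-2 microglobulin, the product of B2m, and receives a peptide that the Tap1 and Tap2 transporter has pumped into the endoplasmic reticulum while tapasin, the product of Tapbp, holds the complex together. Class II molecules, here the H2-Aa alpha chain and the H2-Ab1 beta chain, display peptides from the endocytic route and travel with the invariant chain, the product of Cd74. Ciita is the coactivator that class II transcription depends on. In brain, class II is mainly a product of microglia and of macrophages and dendritic cells at the borders, whereas neurons can make class I.

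Some promoters of these genes carry short elements in a fixed order, which is shown first because the class II gene H2-Aa shares it with B2m, H2-D1 and H2-K1. TGACG and ATTGG are the cores of elements that CREB-family and NF-Y proteins are known to bind. RefSeq promoter windows of the GRCm38.p6 assembly, from 250 bases before to 50 bases after a start site, were found for 6 of the 10 members. The windows were searched on both strands for TGACG and for ATTGG, which do not overlap each other in the stretches below. In 4 of the 6, TGACG was followed by ATTGG on the same strand with 20 or 21 bases between them, a spacing that was read off these promoters. Of all promoters, 54 of 32851 promoters (0.164%) held the pair at that spacing, while TGACG by itself occurred in 20.8% and ATTGG in 37.4%. The capitals mark the pair in each stretch:
B2m: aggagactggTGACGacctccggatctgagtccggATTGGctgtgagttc
H2-D1: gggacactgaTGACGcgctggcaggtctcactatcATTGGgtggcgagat
H2-K1: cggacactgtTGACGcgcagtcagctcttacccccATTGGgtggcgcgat
H2-Aa: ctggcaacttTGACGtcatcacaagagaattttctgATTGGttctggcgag
The B2m stretch is chr2:122147599-122147648 on the plus strand, and its TGACG begins 78 bases before the start site. The H2-D1 stretch is chr17:35262983-35263032 on the plus strand, with TGACG 101 bases before the start. H2-K1 is read from the minus strand at chr17:34000349-34000398. It has 2 start sites in the table, and its TGACG begins 41 bases before the one and 55 before the other. H2-Aa is read from the minus strand at chr17:34287857-34287907, where 21 bases rather than 20 lie between the 2 elements and TGACG begins 74 bases before the start. The Tap1 and Tapbp windows did not hold the pair.

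Ctcf, the deleted gene, was measured first as a check of the labels. Its signal was -1.11, -1.75, -1.47 and -1.15 in WT 1 to 4 and -2.56, -2.42, -1.96 and -2.02 in CKO 1 to 4. All 4 CKO mice lay below all 4 WT mice, with a difference of -0.87 (SE 0.22) and an exact two-sided permutation p of 0.0286, the smallest that 4 against 4 can give. The limma p of Ctcf, adjusted over all probes tested, was 0.738. The labels do not give the deleted exons, and whether the probe reads them was not tested.

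Between 72.2% (CKO 3) and 81.5% (WT 1) of probes were well above background on an array, and 4 arrays a group set the precision. The arrays lay on 3 slides: slide 1 held WT 1 alone, slide 2 held WT 2, WT 3, CKO 1 and CKO 2, and slide 3 held WT 4, CKO 3 and CKO 4. On the first principal component (52.9% of the variance) slide 3 scored 31.4 to 166 and the 5 other arrays scored -82.8 to -14.6, with CKO 3 the most extreme. The difference between genotypes also followed signal. When probes were split by mean signal into 10 groups of equal size, the median difference was -0.57 in the dimmest group and 0.16 in the brightest, and it was -0.10 over all 44316 probes.

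None of the 13 member probes differed between CKO and WT past the threshold. With limma, 0 passed an adjusted p of 0.05, against 0% of all probes tested, and 0 passed an unadjusted p of 0.05, against 5.33% of all probes. The 4 CKO values of a probe overlapped the 4 WT values in all 13. Of all probes 3.28% did not overlap, 1.71% with CKO higher and 1.57% with CKO lower. The smallest limma p among them was 0.112, for Cd74, and the smallest adjusted p was 0.738. In a bulk pulldown of this kind, fewer cells of a type and less RNA per cell cannot be told apart.

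The invariant chain and 1 of the 2 H2-K1 probes had the highest differences whose standard errors stayed below 0.25, at 0.39 for Cd74 and 0.34 for that H2-K1 probe. The lowest difference was -0.37, at a Ciita probe. Of the 13 probes 9 had a positive difference, against 39.4% of all probes, and the median was 0.05. That share depends on the scaling, since the median difference of all probes was -0.10 here and 0.03 with the authors' deposited values. The member probes also share genes and mice, so no shift of the members is read from these counts.

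B2m, whose product is the light chain of every classical class I molecule, had a single probe printed at 2 spots, at chr2:121978401-121978460 of the mm9 build. Its signal in WT 1 to 4 was -0.85, -0.96, -0.95 and -0.26, and in CKO 1 to 4 it was -0.81, -1.21, -0.43 and -0.39. The 3 highest mice, WT 4, CKO 3 and CKO 4, were the 3 of slide 3. The group means were -0.76 ± 0.34 (SD, n = 4) and -0.71 ± 0.38 (SD, n = 4). Their difference was 0.05 (SE 0.25, limma adjusted p = 0.943), and its 95% interval reached from -0.51 to 0.61, or 0.70 to 1.5 times the WT signal. With the slide as a block the B2m difference was -0.09, within slide 2 it was -0.05 and within slide 3 it was -0.15, so its direction turned. With quantile normalization it was 0.10, and with the authors' deposited values 0.18.

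H2-D1, a classical heavy chain, was read by a probe at chr17:35403886-35403945 (mm9). WT 1 to 4 had 0.25, 0.71, 0.28 and 0.45, and CKO 1 to 4 had 0.58, 0.30, 0.78 and 0.73. CKO 3 and CKO 4 lay above every WT mouse and the other CKO mice lay among them. The means were 0.42 ± 0.21 (SD, n = 4) and 0.60 ± 0.22 (SD, n = 4), a difference of 0.17 (SE 0.18, limma adjusted p = 0.760). The interval of -0.24 to 0.58 spans 0.85 to 1.5 times the WT signal. Within slide 2 the H2-D1 difference was -0.06, and within slide 3 it was 0.30.

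H2-K1, the other classical heavy chain measured, had 2 probes that lie apart in the gene. The first, A_51_P198434, was printed at 10 spots and lies at chr17:34133055-34133114 (mm9). It gave -3.13, -3.69, -3.44 and -3.11 in WT 1 to 4, against -3.35, -3.25, -2.70 and -2.71 in CKO 1 to 4. Again the CKO mice of slide 3 were above every WT mouse, and the CKO mice of slide 2 were not. The means were -3.34 ± 0.28 (SD, n = 4) and -3.00 ± 0.35 (SD, n = 4), with a difference of 0.34 (SE 0.23, interval -0.17 to 0.85, limma adjusted p = 0.738). Within slide 2 that difference was 0.26 and within slide 3 it was 0.41. Without WT 2 it was 0.22, with quantile normalization 0.57 and with the authors' deposited values 0.75, the last with a limma adjusted p of 0.889.

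The other H2-K1 probe, A_55_P2049647, lies at chr17:34133984-34134043 (mm9, minus strand). Its sequence is printed because 29 of its bases, in capitals, also occur in the array's probe for H2-T23, a nonclassical class I gene:
H2-K1 A_55_P2049647: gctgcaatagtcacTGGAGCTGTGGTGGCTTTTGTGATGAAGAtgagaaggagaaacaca
In all, 6 other probes of the array shared a run of at least 14 bases with it, so signal of related class I transcripts at this probe cannot be told apart from that of H2-K1. This H2-K1 probe gave 2.20, 2.14, 2.10 and 1.80 in WT 1 to 4 and 2.21, 2.24, 2.03 and 2.11 in CKO 1 to 4. WT 4 was the lowest and the 7 other mice lay within a narrow band. The difference was 0.08 (SE 0.16, interval -0.27 to 0.44, limma adjusted p = 0.843), with 0.10 within slide 2 and 0.27 within slide 3. It was 0.00 without WT 4, and with quantile normalization it turned to -0.04. The H2-T23 probe gave 2.14, 2.06, 2.07 and 1.91 in WT and 2.24, 2.29, 2.15 and 2.08 in CKO, a difference of 0.15 (SE 0.14), and WT 4 was its lowest mouse too.

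The peptide transporter is built from Tap1 and Tap2. Tap1, printed at 10 spots, lies at chr17:34330854-34330913 (mm9). Its signal was -4.26, -5.15, -4.43 and -4.35 in WT 1 to 4 and -4.64, -4.61, -4.19 and -4.46 in CKO 1 to 4. WT 2 stood below the 7 others, and the groups overlapped. The Tap1 difference was 0.07 (SE 0.23, interval -0.45 to 0.59, limma adjusted p = 0.908), with 0.17 within slide 2 and 0.02 within slide 3, and it turned to -0.13 without WT 2. With quantile normalization the Tap1 difference was 0.50, and with the authors' deposited values it was 0.59, with limma adjusted p of 0.875 and 0.889.

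Tap2, the second transporter subunit, at chr17:34353116-34353175 (mm9), had the lowest difference among the class I probes. WT 1 to 4 had -2.25, -2.39, -2.03 and -2.41, and CKO 1 to 4 had -2.57, -2.37, -2.43 and -2.55. All CKO mice but CKO 2 lay below every WT mouse. The difference was -0.21 (SE 0.16, interval -0.56 to 0.14) with an exact permutation p of 0.0857 and a limma adjusted p of 0.738. It was -0.26 within slide 2, -0.08 within slide 3, -0.05 with quantile normalization and 0.01 with the authors' deposited values.

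Tapbp, the tapasin gene, at chr17:34065963-34066022 (mm9), gave -1.22, -1.62, -1.58 and -1.33 in WT 1 to 4. In CKO 1 to 4 it gave -1.53, -1.93, -1.08 and -1.43. CKO 3 was the highest and CKO 2 the lowest of all 8, so the CKO mice spanned the WT mice on both sides. The Tapbp difference was -0.05 (SE 0.21, interval -0.53 to 0.42, limma adjusted p = 0.926). Within slide 2 it was -0.13, within slide 3 it turned to 0.08, and with quantile normalization it turned to 0.03.

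**Figure D1:**
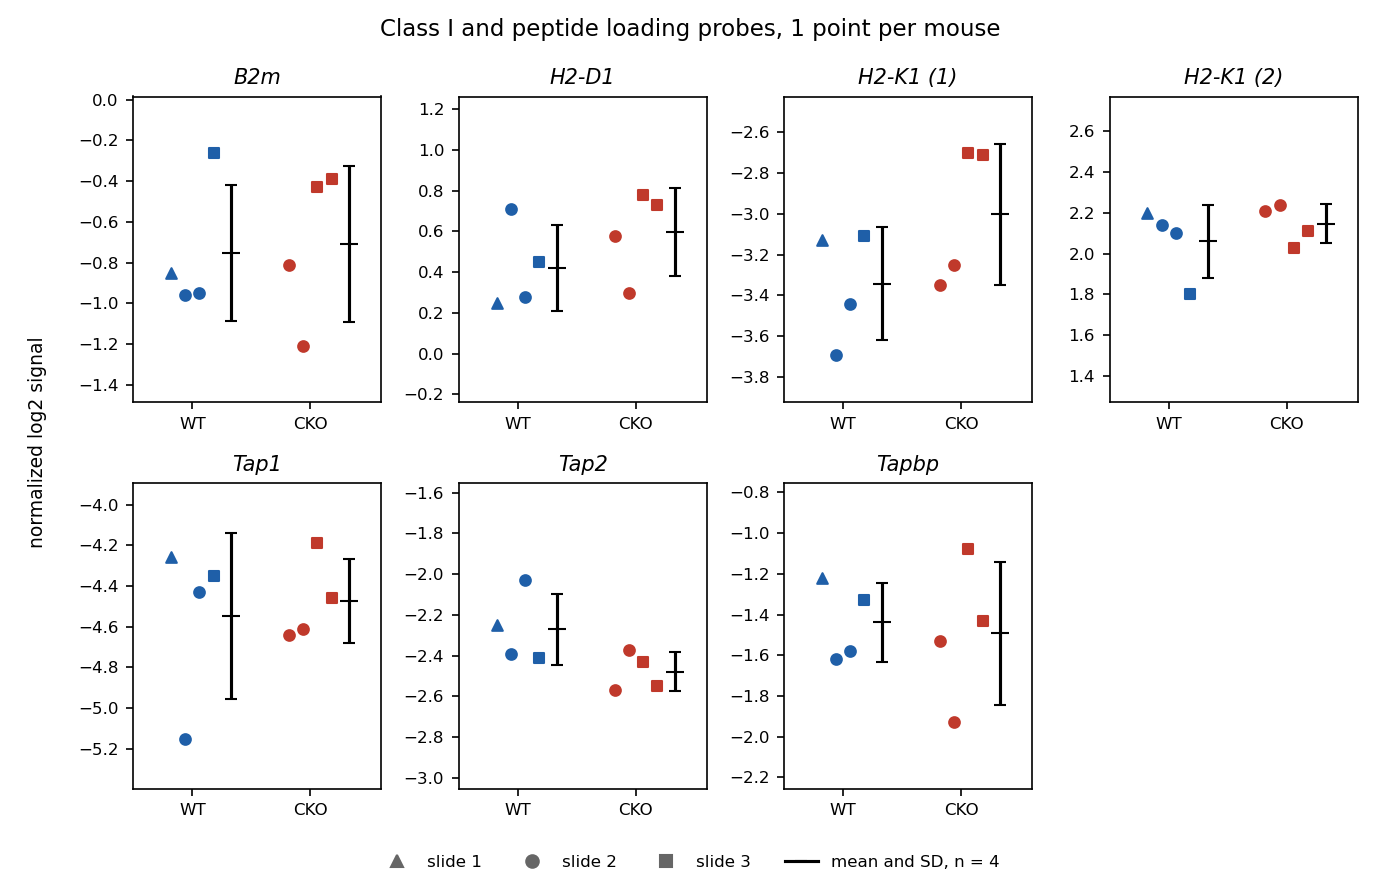
Normalized log2 signal (vertical axis) of the 7 class I and peptide loading probes in the 4 WT mice (blue) and the 4 CKO mice (red), 1 point per mouse, with the slide given by the marker and the mean and SD in black. H2-K1 (1) is A_51_P198434 and H2-K1 (2) is A_55_P2049647, each panel has its own vertical axis, and the groups overlap in all 7 panels.

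Cd74, which encodes the invariant chain, was read by a single probe that was clear of background in every mouse, at chr18:60972075-60972132 (mm9). Its signal was -1.54, -1.49, -1.55 and -2.18 in WT 1 to 4 and -1.53, -0.90, -1.37 and -1.41 in CKO 1 to 4. CKO 2, CKO 3 and CKO 4 lay above every WT mouse, CKO 1 lay level with WT 1 to 3, and WT 4 lay below all others. The means were -1.69 ± 0.33 (SD, n = 4) and -1.30 ± 0.27 (SD, n = 4). The difference of 0.39 (SE 0.22), a ratio of 1.31, had an interval of -0.11 to 0.88 and an exact permutation p of 0.0571, with a limma adjusted p of 0.738. Its size rested on single mice at both ends, since it was 0.22 without WT 4 and 0.25 without CKO 2. Within slide 2 it was 0.31, and within slide 3, where WT 4 is the only WT mouse, it was 0.79. Cd74 had a positive difference under all 21 alternatives tried, from 0.21 to 0.79, with adjusted p from 0.501 to 1.

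H2-Aa, the class II alpha chain, was at the edge of detection. Its probe at chr17:34421285-34421344 (mm9) was well above background in 2 WT mice and 1 CKO mouse, and on 4 arrays its processed signal was a small surrogate value set by the scanner software. The signal was -5.0, -7.48, -7.52 and -4.53 in WT 1 to 4 and -7.35, -7.33, -5.41 and -2.87 in CKO 1 to 4. Both groups thus held mice at the floor, the 4 of slide 2, and mice above it. The means were -6.13 ± 1.59 (SD, n = 4) and -5.74 ± 2.12 (SD, n = 4), and no test was made.

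H2-Ab1, the class II beta chain, had 2 probes, A_55_P1962747 at chr17:34406296-34406355 and A_55_P2146560 at chr17:34406305-34406364 (mm9). They overlap by 51 bases and differ at 1 of them, T51C, counted from 1 at the 5′ end of the first probe. The stretch around that base is printed because the probes gave different patterns over the mice, with the differing base in capitals:
H2-Ab1 A_55_P1962747: aataaacgagacTcagactctg
H2-Ab1 A_55_P2146560: aataaacgagacCcagactctg
Each probe also has 9 bases outside the overlap. Which base these mice carry was not tested.

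The first H2-Ab1 probe gave -3.91, -1.29, -2.89 and -5.25 in WT 1 to 4 and -1.27, -3.44, -3.65 and -3.39 in CKO 1 to 4. WT 2 and CKO 1 were high together and WT 4 was low, a spread of 1.67 (SD) in WT and 1.12 in CKO. The second H2-Ab1 probe gave -4.15, -4.50, -4.36 and -5.40 in WT 1 to 4 and -4.79, -4.0, -4.86 and -4.73 in CKO 1 to 4, with spreads of 0.55 and 0.40. WT 2 and CKO 1 did not stand out on the second probe, where CKO 2 was the highest, while WT 4 was the lowest on both. The difference was 0.40 (SE 0.84, interval -1.5 to 2.29, limma adjusted p = 0.860) for the first and 0.01 (SE 0.31, interval -0.69 to 0.71, limma adjusted p = 0.992) for the second. The interval of the first admits 0.35 to 4.9 times the WT signal. Within slide 2 the differences were -0.26 and 0.03, within slide 3 they were 1.73 and 0.61, and without WT 4 they turned to -0.24 and -0.26. With quantile normalization they were 0.63 and 0.46, and with the authors' deposited values 0.80 and 0.61, with limma adjusted p from 0.875 to 0.893.

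Ciita, the class II coactivator, had 3 probes. A_55_P2035003 at chr16:10492271-10492330 and A_55_P2143641 at chr16:10491091-10491150 (mm9) belong to 1 transcript in the array's annotation, and each was well above background in 4 WT and 3 CKO mice. The first gave -2.78, -2.74, -2.40 and -4.24 in WT 1 to 4 and -3.06, -2.25, -5.13 and -3.18 in CKO 1 to 4. The second gave -3.02, -2.74, -2.87 and -4.25 in WT and -2.94, -2.42, -5.16 and -3.48 in CKO. The pair moved together from mouse to mouse, with WT 4 and CKO 3, both on slide 3, as the lowest of their groups on either probe. The differences were -0.37 (SE 0.62, interval -1.77 to 1.03, limma adjusted p = 0.827) and -0.28 (SE 0.58, interval -1.6 to 1.04, limma adjusted p = 0.858). Without CKO 3 they turned to 0.21 and 0.27, and with quantile normalization they were -0.07 and 0.04. Within slide 2 they were -0.09 and 0.13, and within slide 3 they were 0.08 and -0.07.

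The last Ciita probe, A_55_P2179074 at chr16:10526568-10526627 (mm9), shared a run of at least 14 bases with 21 other probes, the longest of 26 bases with a probe for Tenm1. Its signal was 3.19, 2.86, 2.87 and 2.71 in WT 1 to 4 and 2.76, 2.91, 2.97 and 3.07 in CKO 1 to 4. WT 4 and CKO 3, low on the other Ciita probes, were not set apart from the rest in the same way here. Its raw intensity was 28700 to 46800, where the other Ciita probes had 113 to 856 and 110 to 764. The difference was 0.02 (SE 0.16, interval -0.35 to 0.39, limma adjusted p = 0.963), and it was -0.02 within slide 2, 0.31 within slide 3 and -0.11 with quantile normalization. How much of this signal comes from Ciita was not tested.

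**Figure D2:**
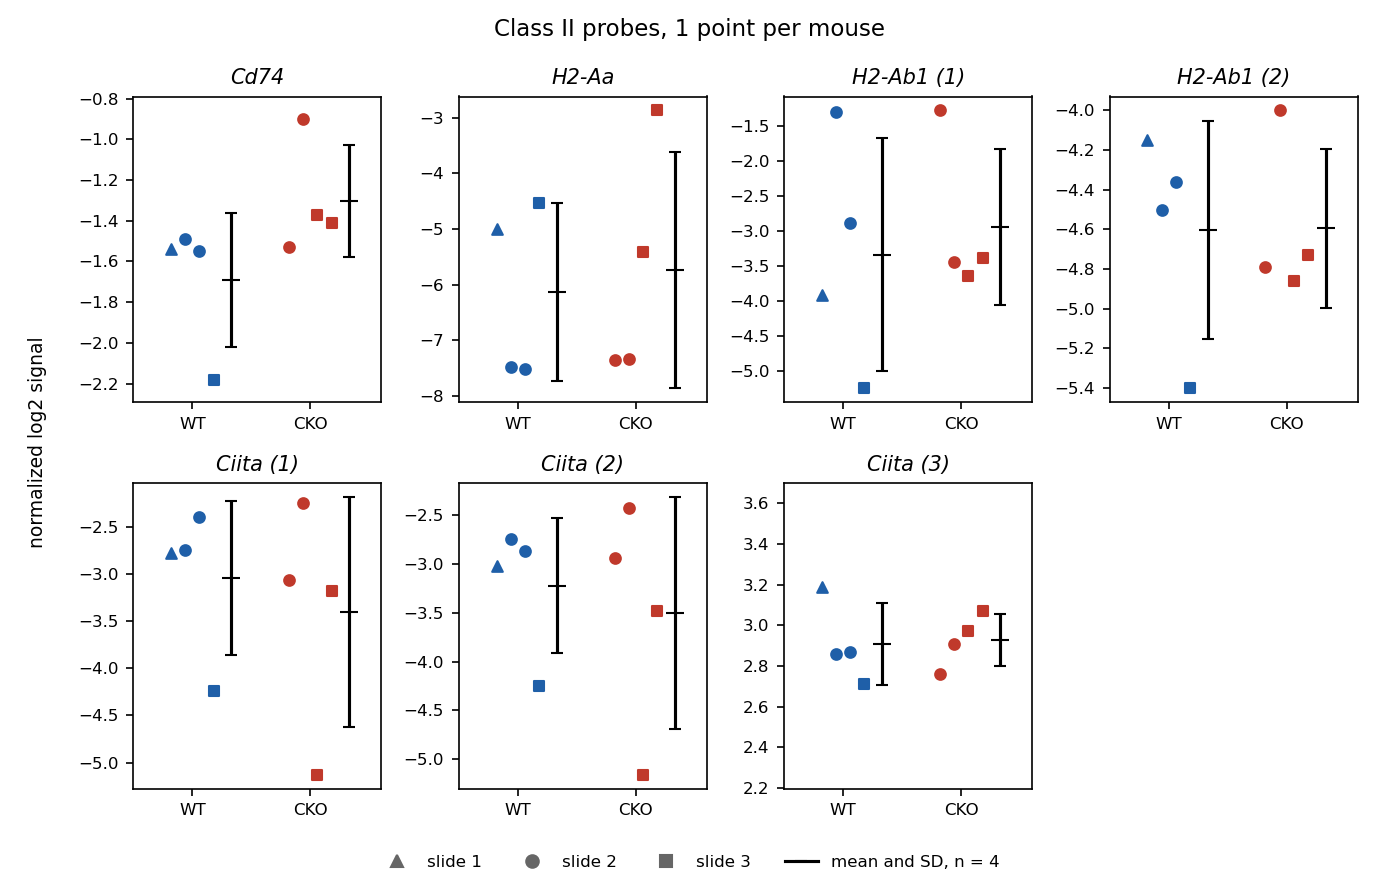
Normalized log2 signal (vertical axis) of the 7 class II probes in the 4 WT mice (blue) and the 4 CKO mice (red), 1 point per mouse, with the slide given by the marker and the mean and SD in black. H2-Ab1 (1) is A_55_P1962747, H2-Ab1 (2) is A_55_P2146560, and Ciita (1) to (3) are A_55_P2035003, A_55_P2143641 and A_55_P2179074; each panel has its own vertical axis, and the groups overlap in all 7 panels.

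**Figure D3:**
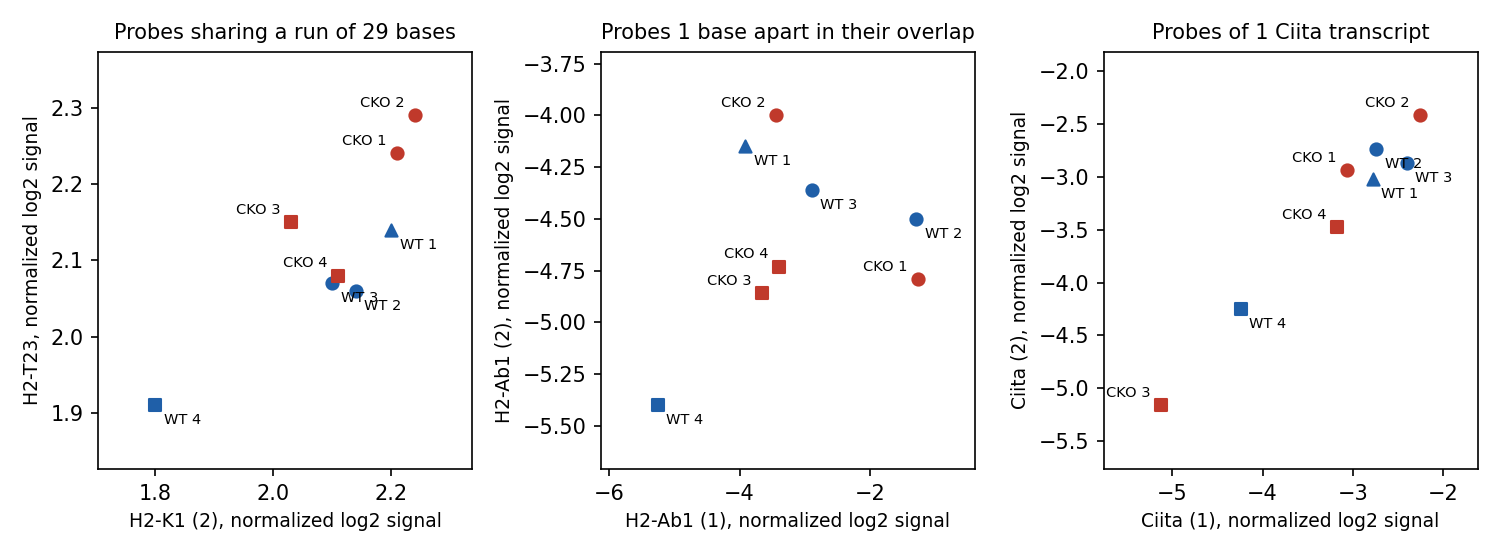
Normalized log2 signal of 1 probe against another over the 8 mice (WT blue, CKO red, marker by slide as in the plots of signal by mouse): H2-K1 A_55_P2049647 and H2-T23, the 2 H2-Ab1 probes, and Ciita A_55_P2035003 and A_55_P2143641. WT 2 and CKO 1 are high on 1 H2-Ab1 probe alone, whereas WT 4 and CKO 3 are low on both Ciita probes.

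Set side by side, class I probes had narrower intervals than most class II probes. The intervals of all 13 probes held 0. At B2m, H2-D1, Tap1, Tap2, Tapbp, H2-K1 A_55_P2049647 and Ciita A_55_P2179074 they kept the CKO signal within 0.68 to 1.5 times that of WT. At H2-K1 A_51_P198434, Cd74 and H2-Ab1 A_55_P2146560 the upper ends were 1.8, 1.8 and 1.6 times. A doubling thus lay outside the interval at all of these probes under the main scaling. Other scalings did not exclude it at some of them. The authors' deposited values gave 0.75 (SE 0.35) for H2-K1 A_51_P198434, 0.59 (SE 0.31) for Tap1 and 0.61 (SE 0.29) for H2-Ab1 A_55_P2146560. Quantile normalization gave 0.5 (SE 0.36) for Tap1 and 0.57 (SE 0.31) for H2-K1 A_51_P198434. For Ciita A_55_P2179074 the bound is on the probe's signal, and the part of Ciita in it was not tested. The intervals of H2-Ab1 A_55_P1962747, Ciita A_55_P2035003 and Ciita A_55_P2143641 reached from 0.35 to 4.9, from 0.29 to 2.0 and from 0.33 to 2.1 times. The median difference was 0.07 over the 7 class I probes, with 5 positive and 2 negative, and 0.02 over the 6 tested class II probes, with 4 positive and 2 negative. Against the median of all probes of like signal, 9 of the 13 differences were higher. That median lay inside the interval for 10 of the 13 and below it for Cd74, Tap1 and H2-K1 A_51_P198434. By construction as many probes lie above such a median as below it. The share of all probes whose interval leaves it out was not computed, so these probes are not read as set apart.

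**Figure D4:**
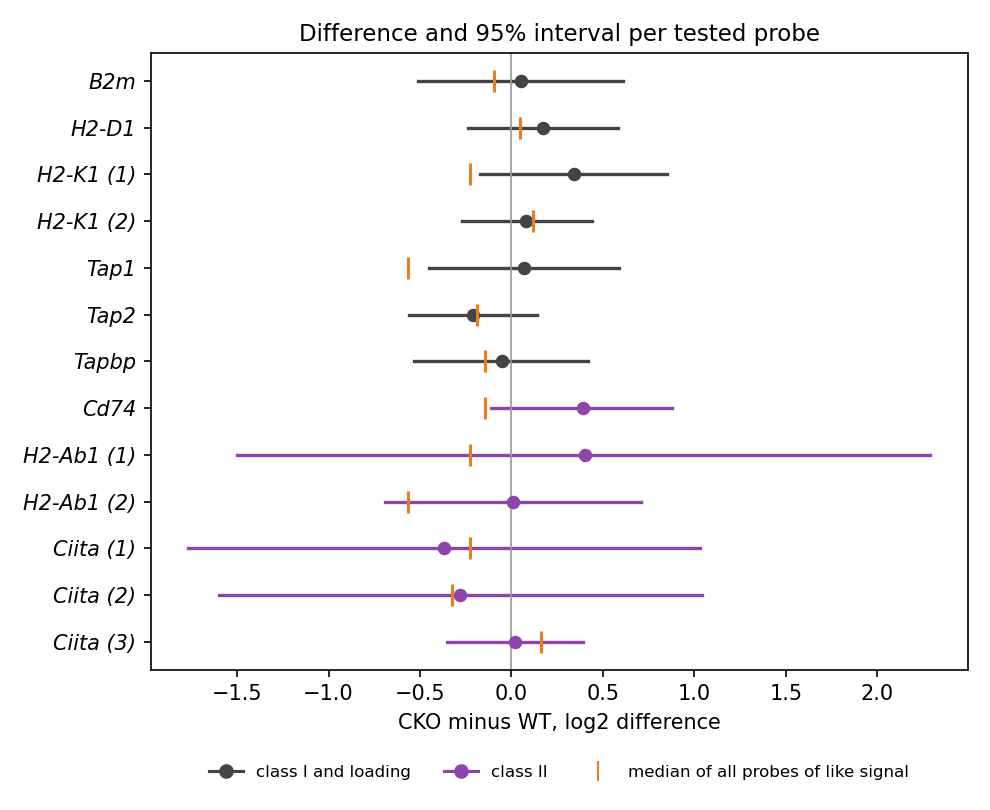
CKO minus WT log2 difference (horizontal axis) of each of the 13 tested probes as a point, with its 95% interval as a bar, class I in grey and class II in purple, and probes numbered as in the plots of signal by mouse. The orange mark is the median difference of all probes of like signal, from 10 groups of equal size; every bar crosses 0, and the H2-Ab1 (1), Ciita (1) and Ciita (2) bars are the widest.

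Repeat spots set the spread within an array beside the spread between mice. For H2-K1 A_51_P198434 the SD among the 7 to 10 unflagged spots of an array was 0.08 to 0.37, with a median of 0.15, and the SD between mice within a group was 0.32. For B2m the SD of its 2 spots had a median of 0.08, against 0.36 between mice. Tap1 was noisier on the array, at 0.23 to 0.69 with a median of 0.29, against 0.32 between mice. The spots of a mouse share its RNA and were averaged before any test.

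The medians of class I and of class II were highest in different mice. Each probe was set against its own WT mean and the median over the probes of a class was taken. For class I this gave 0.14, -0.18, -0.10 and 0.11 in WT 1 to 4 and -0.05, -0.10, 0.35 and 0.08 in CKO 1 to 4, with CKO 3 highest. For class II it gave 0.23, 0.25, 0.30 and -0.91 in WT 1 to 4 and 0.07, 0.70, -0.29 and -0.09 in CKO 1 to 4, with CKO 2 highest and WT 4 far below the other WT mice. Cd74, H2-Ab1 A_55_P2146560, Ciita A_55_P2035003 and Ciita A_55_P2143641 were highest in CKO 2. H2-Ab1 A_55_P1962747 was highest in CKO 1 and Ciita A_55_P2179074 in WT 1. These medians are descriptions, since the probes of a class share the same 8 mice and some share a gene.

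The other genes of antigen presentation were taken from a list of 64, of which 57 were on the array with 74 probes and 63 probes were tested. With limma 0 of the 63 passed an adjusted p of 0.05. At an unadjusted p under 0.05, 2 were higher (2.12% of all probes were) and 0 were lower (3.21% of all). The median difference was -0.01, with 28 positive and 35 negative, where 39.4% of all probes were positive. The smallest limma adjusted p among them was 0.738, so none of the differences named next passed.

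The 2 higher probes were for proteases of the class II route. Ctss encodes cathepsin S, which trims the invariant chain, and it gave -1.60, -3.60, -2.51 and -2.92 in WT 1 to 4 against -1.16, -1.47, -1.69 and -2.17 in CKO 1 to 4. The difference was 1.04 (SE 0.41, exact permutation p = 0.0857), with CKO 1 and CKO 2 above every WT mouse. Lgmn encodes the lysosomal protease legumain. Its signal was 1.05, 0.83, 1.06 and 1.64 in WT 1 to 4 and 1.57, 1.5, 2.06 and 1.55 in CKO 1 to 4, a difference of 0.53 (SE 0.22, exact permutation p = 0.1143). Only CKO 3 was above every WT mouse for Lgmn. Over the 16 tested class II probes of the list, Ctss, Lgmn and the loading chaperones H2-DMa and H2-DMb1 included, the median was -0.09 and 6 were positive. Cd80, a costimulatory ligand, was the lowest of those measured on every array, at -0.61 (SE 0.30) and at -0.33 by a second probe.

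Chaperones and trimming enzymes of class I loading gave 5 positive differences of 5 tested, where 39.4% of all probes were positive, with a median of 0.07. The largest was Canx, which encodes calnexin, at 0.35 (SE 0.21), and Pdia3 was at 0.24 (SE 0.19). Erap1, an aminopeptidase that trims peptides, was not well above background on any array. Nonclassical and other class I genes had a median of -0.06 over 20 probes, 8 of them positive. H2-Q7 was at 0.32 (SE 0.20) and H2-Q1 at -0.50 (SE 0.23). H2-T24 had the 1 tested probe of the list whose groups did not overlap, against 1.57% of all probes that were lower in this way. An H2-Ob probe that was not well above background on any array, and was not tested, did not overlap either, with CKO higher. The H2-T24 probe whose groups did not overlap, A_55_P2003991, gave 0.85, 0.86, 0.78 and 0.71 in WT 1 to 4. In CKO 1 to 4 it gave 0.57, 0.68, -0.12 and 0.57, a difference of -0.37 (SE 0.20). A second H2-T24 probe differed by -0.01.

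Regulators of MHC transcription had a median of -0.03 over 22 probes, 9 of them positive. Irf1, an interferon-induced transcription factor, was at -0.39 (SE 0.22) and at -0.31 by a second probe. Nlrc5, the class I counterpart of Ciita, was at -0.46 (SE 0.30) and -0.38 (SE 0.49) by its 2 probes, named after its values were seen. Pirb, a class I receptor of neurons, was not well above background on any array.

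Markers of the cells that usually carry class II were read beside these values. All 19 microglia marker probes were above background on at least 1 array, 17 were tested, and 2 were higher (2.12% of all probes were) and 1 lower (3.21% of all) at an unadjusted limma p under 0.05. Their median difference was 0.15, and their summed linear signal, as a multiple of the 75th percentile, was 85.3 to 114 in WT and 99.5 to 132 in CKO. The sum adds linear signal, so it rested mainly on the brightest probe of Itgam, of Siglech and of Csf1r, with WT means of 5.83, 4.20 and 4.02. The other probes of these genes had WT means of -2.25 to 0.86. Cd74 and this sum were both highest in CKO 2 and both lowest in WT 4, and the part of microglial RNA in the Cd74 values was not tested.

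Markers of border macrophages and dendritic cells included probes at the floor and probes with signal. Of their 11 probes 5 were tested, with a median of -0.12, and 5, for Mrc1, Lyve1, Pf4, Itgax and 1 of 2 for Cd209a, were not well above background on any array. The tested probes were those for Flt3 and Cd163, well above background on all 8 arrays, and the other Cd209a probe, on 6 arrays. The sum over the 11 probes was 1.17 to 1.42 in WT and 1.04 to 1.22 in CKO. For T cells, 4 of 6 probes were tested, 1 of 2 Cd8a probes was above background on no array, and the sums were 2.41 to 4.70 and 2.55 to 4.43.

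The 9 probes for excitatory neuron markers, Camk2a and Slc17a7 among them, all had enough signal to be tested. So did 44316 of all 55663 probes, and passing this filter does not show which cells carried the tag. Their sum was 113 to 134 in WT and 120 to 162 in CKO, with a median difference of 0.24. Class I is also made outside neurons, so the other lists are given too. The sum was 2.39 to 3.61 in WT and 2.59 to 4.17 in CKO for endothelium, 46.8 to 63.2 and 50.8 to 60.6 for oligodendrocytes, and 34.1 to 37.3 and 36.1 to 47.8 for astrocytes. For choroid plexus it was 4.36 to 8.28 and 8.14 to 15.5, with 2 of 7 probes, for Ttr and Kl, whose CKO values all exceeded the WT values, and so did 1 of 11 oligodendrocyte probes, for Mag (1.71% of all probes did). At an unadjusted limma p under 0.05, 2 of 11 astrocyte, 2 of 7 choroid plexus and 1 of 11 oligodendrocyte probes were higher (2.12% of all probes were). By the same rule 1 of 9 endothelium probes was lower (3.21% of all). All probes of these 4 lists were above background on 4 or more arrays. The part of these cells in the member values was not tested.

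The transcripts that tracked B2m and Cd74 most closely were taken over the 8 arrays from 21765 probes with a gene symbol and signal on every array. For B2m they were Strn3, Coro1b and Ggps1, with Pearson correlations of 0.986, 0.981 and 0.978. For Cd74 they were Adam33, Fkbp1a and Nlrp1a, with 0.924, 0.918 and 0.910. The arrays share slides and scaling, and these correlations are descriptions over 8 points.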

How the data were processed

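RNA bound to tagged ribosomes was measured on 1-colour Agilent arrays (Cy5), 1 array per mouse. The RNA was amplified and chemically labelled, per the labels' protocols, and the mice are labelled as biological replicates. The authors deposited scanner files with a red intensity per spot, made with Agilent Feature Extraction 11.5 per the submitters' processing notes. Spatial and multiplicative detrending were applied and probe coordinates are on mm9, per the file headers. A second table of intensity values was deposited, whose ranks followed the background-subtracted signal (Spearman correlation rounding to 1). Its column medians were 1309, 1313, 1263 and 1645 in the WT columns and 1507, 1362, 1987 and 1561 in the CKO columns, and its normalization between arrays is not given in the sources used here.

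Of 62976 spots 59305 were not controls, and no spot of these was saturated. Outlier spots were dropped, spots of a probe were averaged as log2 processed signal, and the 75th percentile of the array was subtracted. Of 55681 probes 18 lacked a usable spot on some array. Probes well above background on at least 4 arrays were tested with limma 3.58.1 in R 4.3.3 (two-sided, Benjamini-Hochberg over all 44316 probes, threshold 0.05), and single probes with an exact two-sided permutation test over 35 distinct splits. Intervals are 95% intervals of the limma fit. Within slide 3 the spread is that of all arrays within slide and genotype, so the lone WT 4 is taken to be as variable as the rest.

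Every member probe is named, with Ctcf. Of the other pathway genes the rule took, in each direction, the 4 with the smallest unadjusted p among tested probes measured on all 8 arrays, and for B2m and Cd74 the 3 most correlated probes. A further few genes were named after their values were seen (H2-T23, Pdia3, Nlrc5, and genes not above background). Members and lists were chosen with earlier results of these data known. Alternatives were quantile normalization, normexp background correction (offset 50) with quantile normalization, the authors' deposited values, other filters on dim probes, 1 probe per gene, slide, sex, array weights, a replicate block, and leaving out each array. Promoter sequences are RefSeq's, and probe sequences are those of the scanner files. Tap2, Cd74, H2-Ab1 and Ciita promoters were not used here. A marker list of 1 other cell type and 1 probe sequence are not reported here.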

Additional observations from a re-analysis of the deposited data

Results flagged for a closer look

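In 5 of 32 groups of 4 mice checked (the member probes and the class medians in each genotype), 1 mouse stood apart by a gap that took up more of the group's range than Dixon's 95% limit allows, which chance gives in about 1 of 20 groups. The gap is stated below as a share of that range. Of these, 3 were WT 4. For B2m it was the highest WT mouse, at -0.26 against -0.96 to -0.85 (gap 0.845). For Cd74 it was the lowest, at -2.18 against -1.55 to -1.49 (gap 0.915). For the class II median per mouse it was the lowest, at -0.91 against 0.23 to 0.30 (gap 0.942). The 2 others concerned H2-Ab1 in CKO: CKO 1 at -1.27 against -3.65 to -3.39 on A_55_P1962747 (gap 0.889), and CKO 2 at -4.0 against -4.86 to -4.73 on A_55_P2146560 (gap 0.847). The groups share mice and probes, so these counts are not independent. A test of whether the genotype difference itself differed between the sexes, with 1 female per group, called 0 of all probes tested, and among the members its unadjusted limma p was 0.417 to 0.942.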

How the results depend on the processing

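No member probe passed an adjusted limma p of 0.05 under any of the 21 alternatives. At an unadjusted p the count of higher member probes rose from 0 to 1, Cd74, with quantile normalization (p = 0.0242), normexp background correction with quantile normalization (p = 0.0213), the authors' deposited values (p = 0.00407) and the slide as a block (p = 0.0452). The class I median ran from -0.05 to 0.16 and the class II median from -0.25 to 0.46, each within the spread between mice, and the median of all probes was 0.03 with the authors' deposited values against -0.10.

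Directions turned as follows. With quantile normalization H2-K1 A_55_P2049647 was -0.04, Tapbp 0.03, Ciita A_55_P2143641 0.04 and Ciita A_55_P2179074 -0.11. With normexp background correction these were -0.07, 0.04, 0.06 and -0.14. With the authors' deposited values they were -0.08, 0.13, 0.02 and -0.22, and Tap2 was 0.01. With the slide as a block B2m was -0.09 and Ciita A_55_P2143641 0.05. Within slide 2 B2m was -0.05, H2-D1 -0.06, H2-Ab1 A_55_P1962747 -0.26, Ciita A_55_P2143641 0.13 and Ciita A_55_P2179074 -0.02. Within slide 3 B2m was -0.15, Tapbp 0.08 and Ciita A_55_P2035003 0.08. In males alone Tapbp was 0.04 and H2-Ab1 A_55_P2146560 -0.11, and with array weights H2-Ab1 A_55_P2146560 was -0.18 and Ciita A_55_P2179074 -0.04. The causes were not tested.

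With each array left out in turn the differences ran from -0.06 to 0.21 for B2m, 0.00 to 0.13 for H2-K1 A_55_P2049647, -0.13 to 0.17 for Tap1, -0.19 to 0.09 for Tapbp, -0.24 to 1.08 for H2-Ab1 A_55_P1962747 and -0.26 to 0.16 for H2-Ab1 A_55_P2146560. They ran from -0.77 to 0.21, -0.64 to 0.27 and -0.04 to 0.12 for Ciita A_55_P2035003, A_55_P2143641 and A_55_P2179074.

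Of the other pathway probes, 2 higher and 0 lower at an unadjusted p, the higher count was 4 with the authors' deposited values, 0 within slide 3 and in males alone, 1 with the slide as a block, and 0 to 2 with an array left out. The lower count was 1 with normexp, with probes well above background on all 8 arrays, with the slide as a block and within slide 3, 3 with array weights and 0 to 3 with an array left out. Over all probes an adjusted p of 0.05 was passed by 4 higher and 1 lower with normexp, 3 lower with no filter, 3 higher with probes well above background on all 8 arrays, 1 lower with 1 probe per gene and 1 higher without WT 2, none of them a member. The counts over all probes at an unadjusted p, 940 higher and 1422 lower, were 1467 and 482 with the authors' deposited values and 2315 and 3909 with array weights. With an array left out they ran from 446 (without CKO 3) to 1896 (without WT 4) higher and from 763 (without WT 3) to 3568 (without WT 4) lower, so the share that the members are set beside moves with single arrays.

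The replicate numbers were not taken as pairs. The deviations of same-numbered mice from their group means correlated at -0.31, 0.34, -0.39 and 0.04. These values cannot show whether the mice were paired, since the deviations also follow the slide. With the replicate block 0 member probes passed, 1 other pathway probe was higher at an unadjusted p, and 508 probes were higher over all probes against 940.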
